A study of Arabidopsis thaliana with 24 samples.

Results

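Roots of 2 inducible Arabidopsis thaliana lines, called ISH1 and ISH2 in the labels, were compared after induction with estradiol. The members were chosen by title, as the 3 ISH1 and the 3 ISH2 samples given estradiol, 6 of the 24 samples of the series. The labels describe seedlings in the Col-0 background, aged 15 d at harvest, selected on hygromycin and moved to new plates after 8 d, with 5 µM estradiol for 1 week in the induced groups. The other samples are a control line, a line called ISH1&2, and all 4 lines without estradiol, in 3 samples each. Both single lines use the XVE system, in which a constitutively expressed chimeric activator turns on a target gene in the presence of estradiol, so that induction is not confined to one tissue of the root. The labels do not say which gene each line carries, whether the 3 samples of a line came from 1 transgenic plant's progeny, or whether they came from separate cultures. The p-values and standard errors below rest on the spread between samples of a group, pooled over the 8 groups of the series. That spread may therefore be technical.

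The study concerns a pair of transcription factors. ATHB25 is a zinc-finger homeodomain protein, and REM7 belongs to the REM (REPRODUCTIVE MERISTEM) family of proteins with a B3 DNA-binding domain. Plant defense against biotrophic pathogens runs largely through salicylic acid, which is made from chorismate in the plastid and activates pathogenesis-related (PR) genes through the receptor NPR1. Roots hold non-green plastids, and the nuclear genes of the photosynthetic apparatus are normally kept at a low level there, although roots grown in light express them.

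Each value below is the log2 of the probe's processed signal minus the 75th percentile of its array, called the log2 level. A difference is ISH1 minus ISH2 on that scale and is given with its standard error. A gene was called when the adjusted p (limma, Benjamini-Hochberg) was below 0.05. On the 3 ISH1 arrays, 82.2% to 84.8% of the probes were well above background, against 76.9% to 79.7% on the 3 ISH2 arrays. Same-numbered samples lay on the same slide, and each line had the same place on every slide, so that line and place cannot be told apart within a treatment. Across the 24128 genes bright on all 24 arrays, arrays correlated at 0.996 to 0.998 within ISH1 and at 0.996 to 0.997 within ISH2, and at 0.964 to 0.967 between the lines. Of 10 root tissue markers, 10 were well above background on all arrays of both lines. Their summed linear level was 18.3 to 21.3 times the 75th percentile in ISH1 roots, against 22.5 to 25.9 in ISH2 roots. Control roots with estradiol had 22.2 to 23.1. Of the 10, 8 were called lower in ISH1 than in ISH2, where 34.2% of all genes were. Against the control, 4 were called lower and 2 higher in ISH1, where 34.3% and 27.5% of all genes were. In ISH2, 1 was called lower and 4 higher, where 18.5% and 21.5% of all genes were. In bulk roots, fewer cells of a type and less RNA per cell cannot be told apart. Of 4 stomatal lineage markers tested, 1 was above background on all arrays of either line.

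The first question was which of the 2 factors each line carried at a high level. ATHB25 had log2 levels of 5.31, 5.16 and 5.23 in ISH1 roots, against -8.03, -8.45 and -8.85 in ISH2 roots, where it was well above background on 0 of 3 arrays. The groups lay far apart, and ISH1 was at least 10833-fold higher (adjusted p = 2.94e-15, limma). REM7 ran the other way. Its brighter probe read 2.59, 0.80 and -0.19 in ISH1 roots, against 6.37, 6.02 and 6.02 in ISH2 roots, a difference of -5.07 ± 0.41 (adjusted p = 8.56e-09). The dimmer REM7 probe differed by -5.16.

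REM7 was not at its resting level in induced ISH1 roots. The ISH1 mean was 1.07 ± 1.41 (SD, n = 3), against -1.47 ± 0.28 in control roots with estradiol, and replicate 1 was the highest on both probes. Without estradiol, REM7 stood at -1.61 ± 0.05 in ISH1 roots and at 0.03 ± 0.18 in ISH2 roots (SD, n = 3 each). ATHB25 was also above the control before induction in ISH1, with a mean of -4.46 ± 0.23, against -7.21 ± 0.69 in ISH2 roots and -8.90 ± 0.14 in control roots, all without estradiol. HSP18.2, whose terminator closes each induced gene in the construct, differed by -0.43 ± 0.14 (adjusted p = 0.0127), and by -0.30 without ISH2 replicate 1 (adjusted p = 0.0860).

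**Figure D1:**
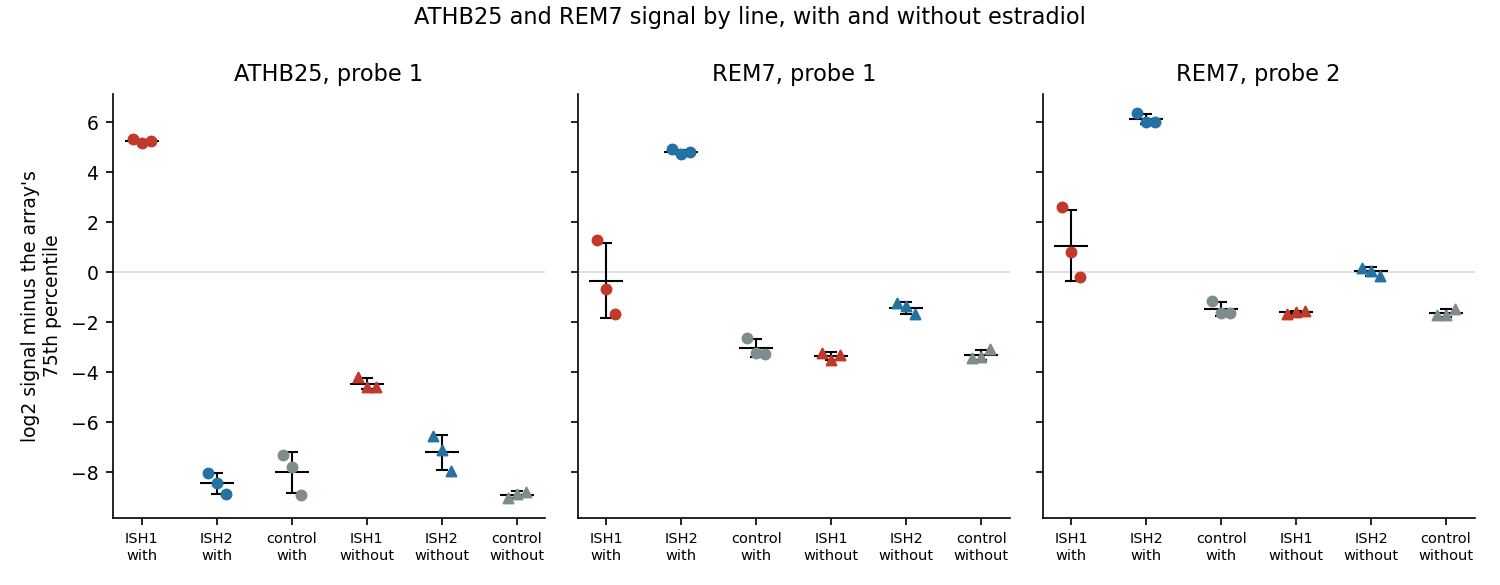
Log2 level (y axis, log2 signal minus the 75th percentile of the array) of the ATHB25 probe and both REM7 probes on each array of ISH1, ISH2 and control roots, with estradiol (circles) and without (triangles). Bars give the mean and SD of 3 arrays. ATHB25 lay between 5.16 and 5.31 in induced ISH1 roots, and the brighter REM7 probe (probe 2 in the plot) between 6.02 and 6.37 in induced ISH2 roots.

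Over all genes, the lines differed widely, and the large differences went one way. Of 27812 genes tested, 6952 (25.0%) were called higher and 9505 (34.2%) lower in ISH1 than in ISH2, and the median difference was -0.07. These shares, 25.0% and 34.2%, are the background of the list counts below. The lower calls were mostly small. A 2-fold difference was reached by 2908 of the higher calls and by 378 of the lower ones. Among the 26865 genes bright on every array of one line or the other, 605 (2.25%) were at least 10-fold higher and 7 (0.0261%) at least 10-fold lower in ISH1. The balance of the small calls depends on the scaling of the arrays. With each array shifted by its median, the median difference was -0.19, with 5455 genes called higher and 13454 lower. Of the 16457 called genes, 16088 had the same sign on all 3 slides. The calls were made on these same arrays, so this count is no separate support.

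Many genes were seen in one line and not in the other. Among the called genes, 700 were well above background on all ISH1 arrays and on 0 ISH2 arrays, and 4 the other way. After ATHB25, the largest bounds were those of CRK23 (at least 645-fold higher in ISH1), AT1G24147 (at least 634-fold), PCR1 (at least 631-fold), PR1 (at least 403-fold) and CRK6 (at least 396-fold). CRK23 and CRK6 are cysteine-rich receptor-like kinases, and PCR1 is a small membrane protein known for cadmium resistance. The genes seen in ISH2 and not in ISH1 were dim. AT1G70380 was at least 4.82-fold, AT5G54000 at least 4.19-fold and NM_119390 at least 2.95-fold lower in ISH1. AT1G70380 and NM_119390 were also seen on 3 of 3 control arrays with estradiol, AT5G54000 and AT1G19320 on 0 of 3. AT1G70380 differed from that control by -4.48 in ISH1 and by -0.75 in ISH2. NM_119390 differed from it by -2.21 in ISH1 and by 0.38 in ISH2. For AT1G19320 the bound was 2.22-fold (adjusted p = 0.0387), and its call was lost when any 1 of the 6 arrays was left out (differences of -1.45 to -1.25, adjusted p from 0.0570 to 0.0990). Under normexp all 4 had differences above 0, at 0.22 to 0.62.

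Among genes seen on all 6 arrays, the 2 largest differences above 0 were those of PBS3 and ALD1. PBS3, which joins glutamate to isochorismate in salicylic acid synthesis, read 4.00, 3.89 and 3.98 in ISH1 roots, against -6.12, -6.38 and -6.33 in ISH2 roots. The difference was 10.23 ± 0.70 (adjusted p = 1.03e-09). ALD1, the aminotransferase that starts pipecolic acid synthesis, read 2.83, 2.79 and 2.92 in ISH1 roots, against -6.61, -6.04 and -7.17 in ISH2 roots. In both genes the spread within a line was small beside the gap between the lines.

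Among the next genes, WAK1 differed by 8.10 ± 0.41 and WAK3 by 7.28 ± 0.60, both wall-associated kinases that bind pectin. The ubiquitin ligase gene PUB54 differed by 8.73 ± 0.40, and LURP1, named for its late rise after downy mildew infection, by 7.39 ± 0.18. ARD3, an acireductone dioxygenase of the methionine cycle, differed by 7.69 ± 0.27, and ARCK1, a cytosolic receptor-like kinase, by 7.67 ± 0.59. Differences of 7.59 to 8.91 were seen for AT2G25510, AT5G42530, AT4G16215 and AT3G60415. All of these had adjusted p values of 1.14e-08 or less. Being called, with groups that did not overlap, was a condition for naming these genes, so their separation is no further support.

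**Figure D2:**
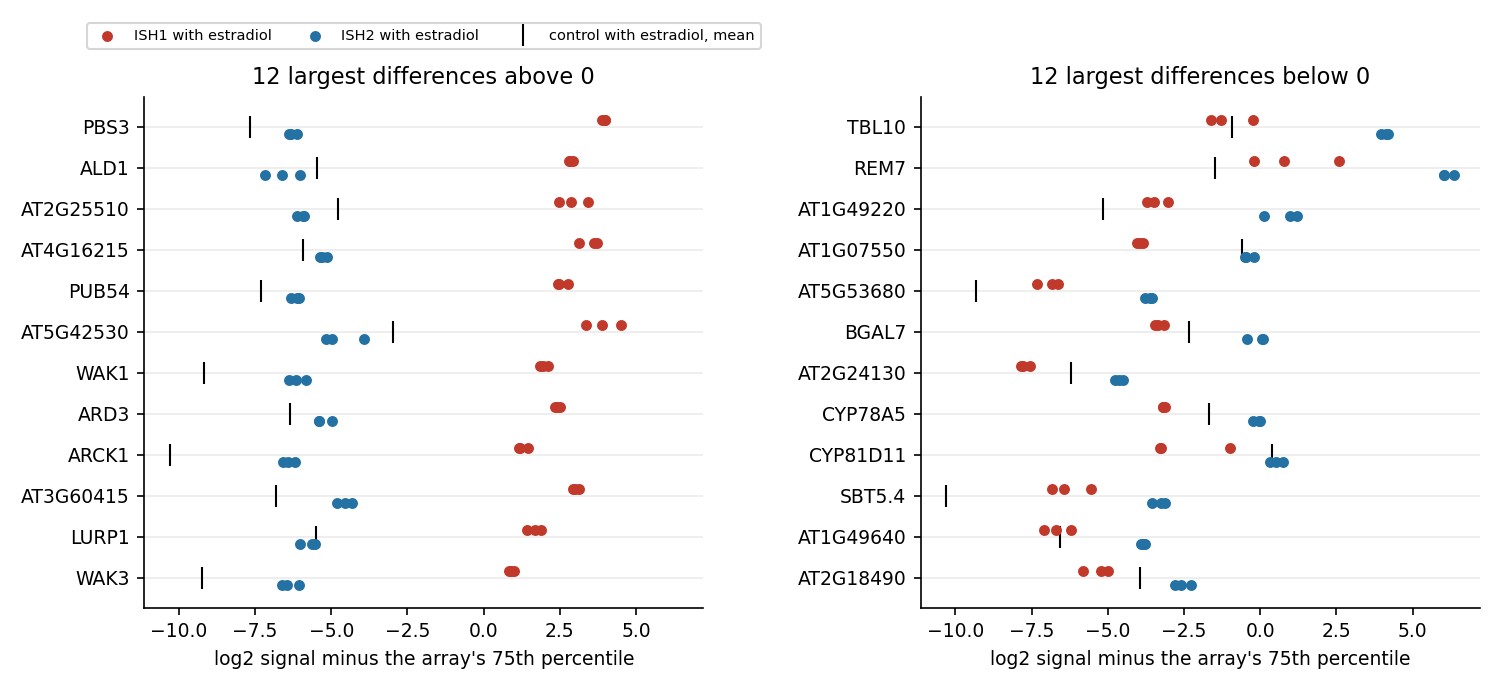
Log2 level (x axis) of the 12 genes with the largest differences above 0 (left) and the 12 with the largest below 0 (right). They were chosen among called genes that were well above background on all 6 arrays and whose groups did not overlap. Points are single arrays of ISH1 (upper row of each gene) and ISH2 (lower row) with estradiol, and the tick is the control mean with estradiol. PBS3 and ALD1 sit near the control in ISH2 and far above it in ISH1.

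The genes lowest in ISH1 relative to ISH2 differed by less. TBL10, of the family that acetylates wall polysaccharides, read -0.25, -1.28 and -1.61 in ISH1 roots, against 3.97, 4.14 and 4.2 in ISH2 roots (difference -5.15 ± 0.23, adjusted p = 2.68e-12). AT1G49220 read -3.02, -3.70 and -3.47 in ISH1 roots, against 0.13, 1.21 and 0.97 in ISH2 roots (difference -4.16 ± 0.24). Here both lines were above the control, by 1.76 in ISH1 and by 5.93 in ISH2. CYP78A5, a cytochrome P450 that promotes organ growth, had -3.17, -3.17 and -3.11 in ISH1 roots, against -0.25, -0.05 and -0.01 in ISH2 roots. It was below the control by 1.46 in ISH1 roots and above it by 1.59 in ISH2 roots, with a control mean of -1.69 ± 0.32 (SD, n = 3).

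CYP81D11, another cytochrome P450, was uneven within ISH1, with levels of -3.28, -3.25 and -1.0, against 0.75, 0.53 and 0.33 in ISH2 roots. Its groups did not overlap, which was a condition for naming it. SBT5.4, a subtilase, was seen on 3 of 3 arrays of each induced line and on 0 of 3 control arrays, and differed by -2.96 ± 0.58. BGAL7, a β-galactosidase, differed by -3.22 ± 0.18. The other genes of this group, AT1G07550, AT5G53680, AT2G24130, AT1G49640 and AT2G18490, differed by -3.55 to -2.79. With another background correction (normexp), SBT5.4, AT5G53680, AT2G24130 and AT1G49640 were not called, with differences of -1.37, -1.14, -0.78 and -1.10. In 8 of these 12 genes, REM7, TBL10 and SBT5.4 among them, replicate 1 was the highest of the 3 ISH1 arrays. The source of those higher levels was not tested. Without that array, REM7 differed by -5.84, TBL10 by -5.55 and SBT5.4 by -3.32.

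The salicylic acid list was the one that differed most. All 19 members tested were called higher in ISH1 and 0 lower, with a median difference of 3.73, beside -0.07 over all genes. Its mean level was 1.45, 1.29 and 1.34 in ISH1 roots, against -3.43, -3.06 and -3.19 in ISH2 roots. Control roots with estradiol had -3.69, -3.81 and -3.74, so that ISH2 lay close to the control and ISH1 far above both. Against the control, 19 of the 19 genes were called higher in ISH1, where 27.5% of all genes were, and 7 higher and 2 lower in ISH2, where 21.5% and 18.5% of all genes were called higher and lower. The median difference from the control was 4.82 in ISH1 and 0.32 in ISH2. The same control arrays stand in both comparisons.

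The steps of salicylic acid synthesis were not equal. ICS1, the isochorismate synthase, read 1.24, 1.04 and 0.98 in ISH1 roots, against -2.72, -2.64 and -2.56 in ISH2 roots, a 13.3-fold difference (3.73 ± 0.09, adjusted p = 7.68e-16). EDS5, the plastid exporter of isochorismate, differed 3.65-fold. The PBS3 step, given above, differed most. In ISH2 roots ICS1 was below the control by 0.93, while EDS5 was at -0.03 from it.

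Regulators upstream of these enzymes followed. SARD1, a transcription factor that binds the ICS1 promoter, had 1.89, 1.80 and 1.99 in ISH1 roots, against -4.56, -4.80 and -4.39 in ISH2 roots, an 89.3-fold difference. Its relative CBP60G differed 5.78-fold and was above the control in both lines, by 6.03 in ISH1 and by 3.50 in ISH2. The lipase-like partners EDS1 and PAD4 differed by 0.89 ± 0.06 and 1.53 ± 0.16. NPR1, the receptor, had the smallest called difference of the list, 0.26 ± 0.06 (adjusted p = 0.00158), with 0.35, 0.44 and 0.54 in ISH1 roots and 0.12, 0.27 and 0.16 in ISH2 roots.

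Targets of the pathway were among the strongest. PR1, the standard marker of the response, read 0.98, 0.45 and -0.30 in ISH1 roots, against -10.08, -9.83 and -10.60 in ISH2 roots. PR2, a β-1,3-glucanase, was at least 235-fold higher in ISH1, and WRKY62 at least 67.9-fold. PR5, a thaumatin-like protein, was seen in both lines and differed 5.13-fold. FMO1, which makes N-hydroxypipecolic acid, the signal of systemic acquired resistance, had 2.60, 2.48 and 2.48 in ISH1 roots, against -2.80, -2.55 and -2.47 in ISH2 roots. WRKY70 differed 6.74-fold and NIMIN1, an NPR1-binding repressor, 38.1-fold.

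The enzymes that hydroxylate salicylic acid differed from each other. DLO1 read 2.13, 2.1 and 2.25 in ISH1 roots, against 1.52, 1.77 and 1.86 in ISH2 roots, a difference of 0.44 ± 0.16 (adjusted p = 0.0225). It was above the control by 4.82 in ISH1 and by 4.38 in ISH2, so both lines stood far above control roots, at -2.66 ± 0.14 (SD, n = 3). DMR6 differed by 1.65 ± 0.11, on 2 ISH2 arrays, since 1 spot was left out. It lay 0.06 from the control in ISH2.

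**Figure D3:**
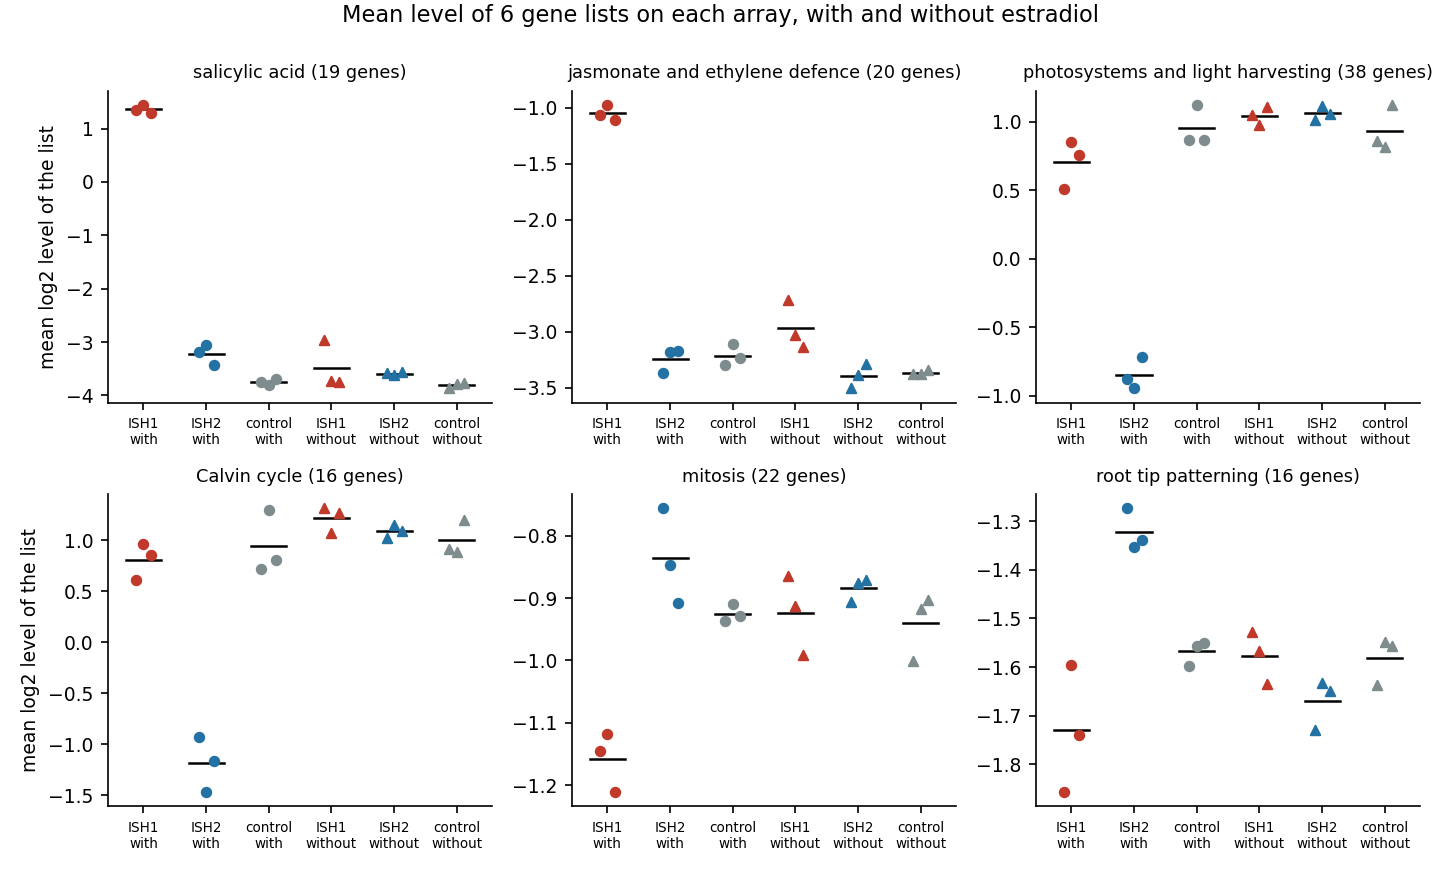
Mean log2 level of the genes of 6 lists (y axis) on each array of ISH1, ISH2 and control roots, with estradiol (circles) and without (triangles); bars are group means of 3 arrays, and the axes differ between panels. Salicylic acid genes stood at 1.29 to 1.45 in induced ISH1 roots, whereas photosystem and Calvin cycle genes were low in induced ISH2 roots alone among the 6 groups shown.

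Genes of jasmonate and ethylene defense were higher in ISH1 as well, in part. Of 20 tested, 14 were called higher and 0 lower (median difference 1.59), where 25.0% of all genes were higher and 34.2% lower. The plant defensin genes led. PDF1.3 read -1.44, -1.30 and -1.36 in ISH1 roots, against -6.60, -6.79 and -6.92 in ISH2 roots (42.5-fold). PDF1.2C differed 34.1-fold. PDF1.1 reached 1.38, 1.46 and 1.54 in ISH1 roots, against -7.14, -5.25 and -9.59 in ISH2 roots, where 2 of 3 arrays were well above background. PDF1.2, the usual marker gene, was dim in ISH1 too, with a bound of at least 1.93-fold.

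The ethylene response factors ERF1 and ORA59, which activate the defensin genes, differed 3.68-fold and 3.76-fold. They stood differently to the control. ERF1 was above it in both lines, by 2.67 in ISH1 and 0.79 in ISH2, whereas ORA59 was below it in both, by 0.82 in ISH1 and by 2.73 in ISH2. LOX2, a lipoxygenase of jasmonate synthesis in green tissue, read -0.77, -1.08 and -2.30 in ISH1 roots, against -6.61, -8.33 and -8.45 in ISH2 roots, where 1 of 3 arrays was above background, and it was uneven in the control (-5.12 ± 2.47, SD, n = 3). MYC2, the main jasmonate transcription factor, differed by 0.01 ± 0.06 and the storage protein gene VSP2 by -0.07 ± 0.15, with adjusted p values of 0.856 and 0.696.

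Photosynthesis genes made the other large group, and the control places the difference on the ISH2 side. Of 38 nuclear genes of the photosystems and light harvesting, 37 were called higher in ISH1 and 0 lower, with a median difference of 1.68. The mean level was 0.85, 0.76 and 0.51 in ISH1 roots, against -0.72, -0.95 and -0.88 in ISH2 roots, and 0.86, 1.12 and 0.87 in control roots with estradiol. ISH1 thus lay just below the control, and ISH2 well below both. In ISH1, 17 of 38 were called lower than the control and 0 higher, where 34.3% of all genes were lower. In ISH2, 38 were called lower and 0 higher, where 18.5% of all genes were lower. The median differences from the control were -0.20 in ISH1 and -1.81 in ISH2.

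Both photosystems took part. LHCB2.2, a light-harvesting protein of photosystem II, read 1.47, 1.17 and 0.97 in ISH1 roots, against -0.88, -1.57 and -0.63 in ISH2 roots (4.68-fold, adjusted p = 1.34e-07). LHCA2, its counterpart in photosystem I, differed 4.32-fold, and PSAL, a photosystem I subunit, 4.47-fold. The smallest called difference was that of PSBX, at 0.67 ± 0.07. PETE1, a plastocyanin gene, differed by 1.56 ± 0.71 and was not called (adjusted p = 0.0679). With the 6 arrays fitted alone, 38 of the 38 genes were called higher, PETE1 among them.

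Carbon fixation showed larger differences. Of 16 Calvin cycle genes, 14 were called higher and 0 lower, with a median of 2.4. The Rubisco small subunit gene RBCS1A read 3.33, 3.09 and 2.80 in ISH1 roots, against 0.26, -0.09 and 0.69 in ISH2 roots (6.89-fold). GAPA2, a plastid glyceraldehyde-3-phosphate dehydrogenase, differed most, 8.5-fold, and PRK, phosphoribulokinase, 5.46-fold. The genes that did not pass were PGK1, a phosphoglycerate kinase (adjusted p = 0.997), and TKL1, a transketolase (0.07 ± 0.06, adjusted p = 0.331), whose reactions also belong to glycolysis and the pentose phosphate pathway. Probes of near-identical genes, such as those of the Rubisco small subunit or the LHCB1 family, may share signal.

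Leaf mesophyll markers moved with these genes. All 6 were called higher in ISH1, and 6 of 6 were well above background on every array of both lines. Their summed linear level was 22.4 to 29.5 times the 75th percentile in ISH1 roots, against 7.81 to 8.79 in ISH2 roots and 26.5 to 32.8 in control roots with estradiol. All 6 also belong to the photosynthesis lists, and their part in the result was not tested.

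Chlorophyll synthesis shifted less. Of 21 genes, 18 were called higher in ISH1 and 1 lower, with a median of 0.50. GUN4, an activator of magnesium chelatase, read -2.15, -2.23 and -2.47 in ISH1 roots, against -3.91, -4.70 and -4.40 in ISH2 roots (4.16-fold). PORC, a protochlorophyllide oxidoreductase, differed 2.72-fold. PORA was at least 3.1-fold higher in ISH1 and dim. The greening regulators did not move together. GLK1 differed by 1.1 ± 0.19, and was above the control by 1.33 in ISH1 and by 0.23 in ISH2, whereas CGA1, a GATA factor, read -8.92, -8.73 and -8.82 in ISH1 roots, with 1 of 3 arrays well above background, against -7.46, -7.31 and -7.41 in ISH2 roots.

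**Figure D4:**
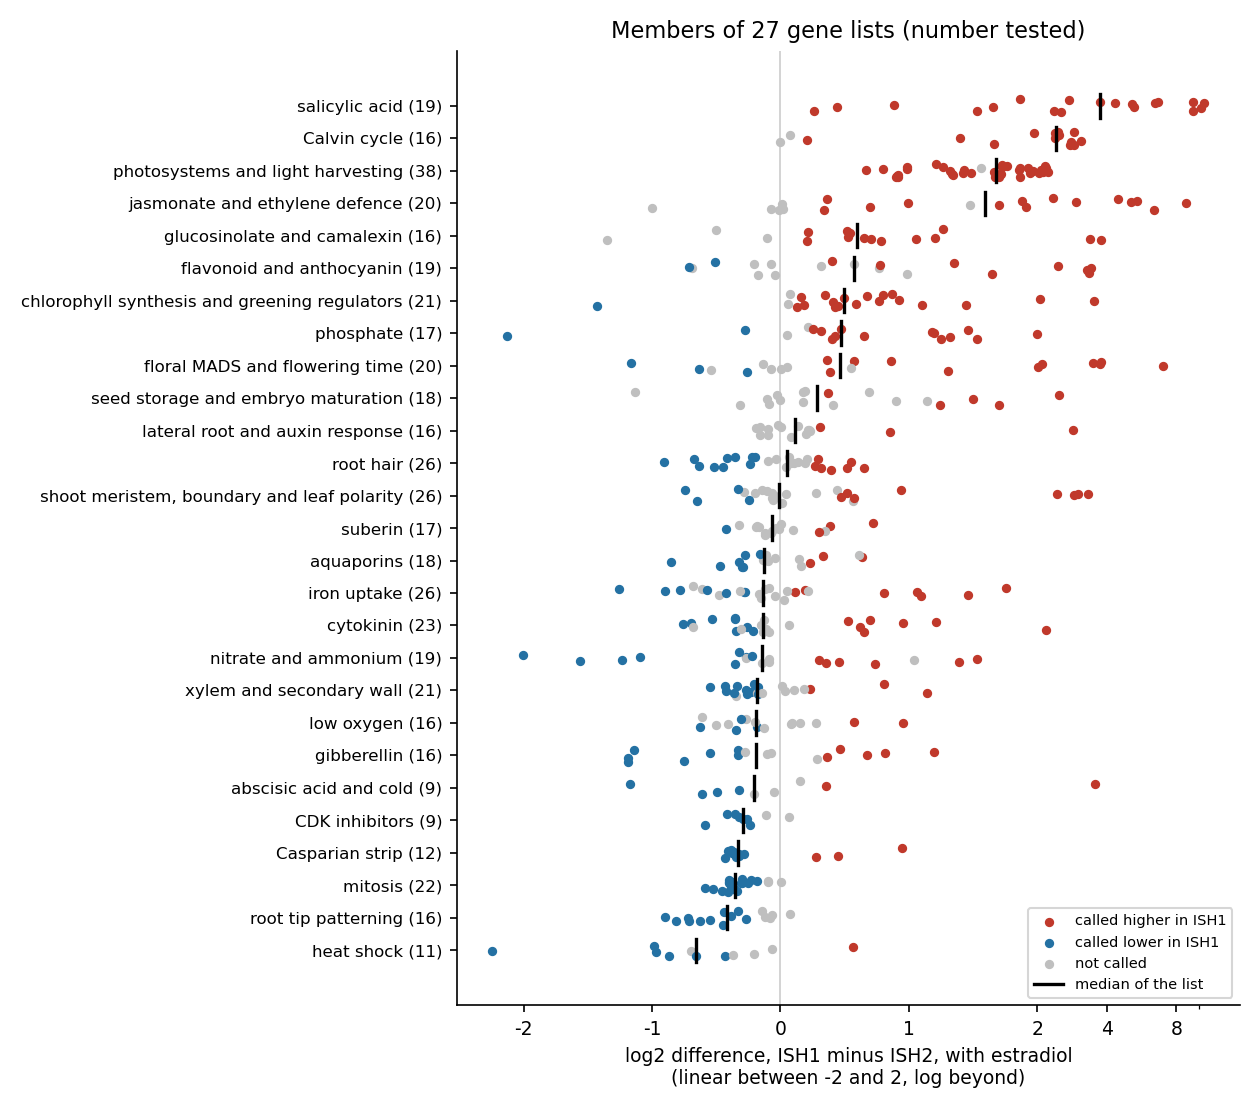
Log2 difference, ISH1 minus ISH2 with estradiol (x axis, linear between -2 and 2 and log beyond), of each tested member of 27 gene lists, ordered by the median of the list (bar). Red points were called higher in ISH1, blue points lower, and gray points were not called. The medians run between 3.73 for salicylic acid and -0.65 for heat shock.

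Genes of cell division were lower in ISH1, by small amounts. Of 22 mitosis genes, 19 were called lower and 0 higher, where 34.2% of all genes were lower and 25.0% higher. The median was -0.35. CYCB2;1, a mitotic cyclin, had the largest difference, -0.58 ± 0.07, with -3.47, -3.65 and -3.58 in ISH1 roots, against -3.08, -2.96 and -2.90 in ISH2 roots. The cytokinesis syntaxin gene KNOLLE read 1.42, 1.37 and 1.4 in ISH1 roots, against 1.80, 1.75 and 1.81 in ISH2 roots. The groups did not overlap in either gene. CYCB1;3 differed by -0.53 ± 0.06 and the kinase gene AUR1 by -0.45 ± 0.07. None of the 22 differed 2-fold, and under normexp 12 were called lower. Here the control was nearer to ISH2, with median differences from it of -0.22 in ISH1 and 0.09 in ISH2. Against the control, 16 of the 22 were called lower in ISH1 and 0 in ISH2, where 34.3% and 18.5% of all genes were. Inhibitors of cyclin-dependent kinases did not go the opposite way. Of 9 tested, 7 were called lower and 0 higher, with KRP7 at -0.59 ± 0.12 and SIM at -0.42 ± 0.07.

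Genes that pattern the root tip were lower in ISH1 too. Of 16 tested, 11 were called lower and 0 higher (median -0.41), where 34.2% of all genes were lower and 25.0% higher. None of the 16 differed 2-fold, and under normexp 6 were called lower. The 10 root tissue markers moved with the mitosis and root tip lists, with 8 called lower and a median of -0.33, and their part in these results was not tested. Some of the markers, such as PLT1 and WOX5, stand in the root tip list as well. BBM and PLT1, AP2-type factors of the stem cell niche, differed by -0.90 ± 0.13 and -0.72 ± 0.09. WOX5, which marks the quiescent center, read -3.20, -3.70 and -4.09 in ISH1 roots, against -3.01, -2.99 and -2.54 in ISH2 roots. Both lines were above the control, by 0.77 in ISH1 and by 1.59 in ISH2. JKD, a zinc-finger protein of ground tissue, differed by -0.71 ± 0.05, and SHR, the factor that moves into the endodermis, by 0.08 ± 0.07 (adjusted p = 0.354).

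Lists of differentiated root tissues held calls in both directions. Of 12 Casparian strip genes, 9 were called lower and 3 higher, and 5 lower when the 6 arrays were fitted alone. CASP1, a scaffold protein of the strip, read 2.97, 3.26 and 3.37 in ISH1 roots, against 3.67, 3.68 and 3.36 in ISH2 roots, with overlapping ranges and a difference of -0.38 ± 0.11. CASP5 went the other way, at 0.95 ± 0.16. Among 21 xylem genes, 11 were called lower and 3 higher, and 6 or 7 lower when ISH1 replicate 2, ISH2 replicate 1 or ISH2 replicate 2 was left out or the 6 arrays were fitted alone. The xylan gene IRX9 differed by -0.54 ± 0.11, while VND7, a master regulator of vessel formation, was higher in ISH1 by 1.14 ± 0.10, with -1.71, -1.76 and -1.89, against -2.80, -2.76 and -3.22 in ISH2 roots. Of 26 root hair genes, 7 were called higher and 10 lower, and of 17 suberin genes 3 higher and 1 lower, where 25.0% of all genes were higher and 34.2% lower. The root hair counts were near that background.

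Floral regulators differed strongly in a few genes. Of 20 tested, 11 were called higher and 3 lower, where 25.0% of all genes were higher and 34.2% lower. The median was 0.47. Under normexp 7 were called higher, and 5 of the 13 with probes bright on all 24 arrays. AG, which specifies stamens and carpels, read -0.25, -0.33 and -0.28 in ISH1 roots, against -7.38, -7.65 and -6.79 in ISH2 roots, where 2 of 3 arrays were well above background (difference 6.99 ± 0.97, adjusted p = 7.66e-06). In the control it was well above background on 0 of 3 arrays. FUL, a MADS-domain factor of fruit and meristem identity, read -1.62, -1.64 and -1.35 in ISH1 roots, against -4.85, -5.13 and -5.06 in ISH2 roots. FLC, the flowering repressor, differed by 3.79 ± 0.60, and SEP3 was at least 5.63-fold higher in ISH1. AP1 and SVP were lower in ISH1, with differences of -1.16 ± 0.25 and -0.63 ± 0.05.

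In the list of shoot meristem, boundary and leaf polarity genes, 8 of 26 were called higher and 4 lower, and the median was -0.01. Over all genes, 25.0% were higher and 34.2% lower. WUS, the stem cell organizer gene, read -5.78, -5.50 and -5.79 in ISH1 roots, against -6.72, -9.79 and -10.49 in ISH2 roots, where 1 of 3 arrays was above background. BOP1, a boundary gene, differed by 3.01 ± 0.29, and YAB5, of abaxial leaf identity, was at least 2.07-fold higher in ISH1. CLV1, the receptor kinase that restricts stem cells, was lower in ISH1, with 1.4, 1.28 and 1.21, against 2.01, 2.04 and 2.07 in ISH2 roots. It was 0.01 from the control in ISH1 and 0.76 above it in ISH2.

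Specialized metabolism differed by branch. Of 16 glucosinolate and camalexin genes, 13 were called higher in ISH1 and 0 lower (median 0.60). CYP79F1, which starts aliphatic glucosinolate synthesis, read -3.04, -3.66 and -4.16 in ISH1 roots, against -7.52, -7.10 and -7.57 in ISH2 roots, and MYB29, its regulator, was at least 2.75-fold higher. The camalexin genes CYP71A12 and CYP71A13 were high in both lines. CYP71A12 stood above the control by 7.43 in ISH1 and by 7.93 in ISH2, and the lines differed by -0.50 ± 0.48 (adjusted p = 0.385). CYP71A13, seen on 1 of 3 control arrays, read 0.22, 0.13 and 0.29 in ISH1 roots, against 1.42, 1.43 and 1.85 in ISH2 roots. Its groups were apart, but it was not called (-1.35 ± 0.95, adjusted p = 0.237). PAD3, the last enzyme of that pathway, differed by 0.78 ± 0.12. In the flavonoid list, 8 of 19 were called higher and 2 lower. Late anthocyanin genes led the higher ones, but unevenly among ISH2 replicates. DFR read -5.55, -3.42 and -4.63 in ISH1 roots, against -8.78, -10.15 and -4.53 in ISH2 roots, so the groups overlapped, and TT4, at the entry of the pathway, differed by -0.20 ± 0.11 (adjusted p = 0.131).

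Nutrient genes showed mixed changes with a few clear cases. Of 17 phosphate genes, 13 were called higher and 2 lower in ISH1 (median 0.48), and 8 higher when ISH1 replicate 1 was left out or when arrays were shifted by the median. The signaling gene SPX3 differed by 1.46 ± 0.30 and the transporter gene PHT1;5 by 1.53 ± 0.16. PHT1;2, another phosphate transporter gene, went against the list, with -0.99, -0.78 and -0.69 in ISH1 roots, against 1.45, 1.64 and 1.52 in ISH2 roots. It was below the control by 0.60 in ISH1 and above it by 1.76 in ISH2. Probes for PHT1;1 and PHT1;2, which are close copies, may share signal.

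Among 19 nitrate and ammonium genes, 6 were called higher and 8 lower, beside 25.0% and 34.2% of all genes. NRT2.1, the main high-affinity nitrate transporter, was higher in ISH1 by 1.53 ± 0.28, while NRT2.4, active in nitrogen starvation, differed by -2.01 ± 0.50 and the ammonium transporter gene AMT1;3 by -1.56 ± 0.14. Of 26 iron uptake genes, 7 were called higher and 7 lower, near the same shares of all genes. FIT, the main regulator of iron uptake, differed by -0.79 ± 0.13 and the nicotianamine synthase gene NAS4 by 1.76 ± 0.13. IMA1, a peptide that signals iron deficiency, was above the control by 3.63 in ISH1 and by 3.41 in ISH2, with a difference of 0.22 ± 0.38 (adjusted p = 0.649). Of 18 aquaporins, 3 were called higher and 7 lower, where 25.0% of all genes were higher and 34.2% lower. Against the control, 17 were called lower in ISH1 and 14 in ISH2, where 34.3% and 18.5% of all genes were.

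The cytokinin, gibberellin and abscisic acid lists had calls in both directions, beside 25.0% of all genes higher and 34.2% lower. Of 23 cytokinin genes, 7 were called higher and 8 lower, with the degrading enzyme gene CKX2 higher in ISH1 by 2.19 ± 0.41. In the gibberellin list, 5 of 16 were called higher and 7 lower. The synthesis gene GA20OX1 differed by -1.14 ± 0.14 and the inactivating GA2OX2 by 1.2 ± 0.14. Of 16 lateral root and auxin genes, 3 were called higher and 0 lower. GH3.3, which conjugates auxin to amino acids, differed by 2.87 ± 0.31. Among 9 genes of abscisic acid and cold, 2 were higher and 4 lower, with COR15A at -4.50, -5.23 and -5.30 in ISH1 roots, against -8.74, -8.62 and -8.31 in ISH2 roots, where 1 of 3 arrays was well above background.

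Heat shock and seed genes closed the survey. Of 11 heat shock genes, 6 were called lower in ISH1 and 1 higher (median -0.65), where 34.2% of all genes were lower and 25.0% higher. The chaperone gene HSP101 read -1.24, -1.02 and -1.15 in ISH1 roots, against -0.47, -0.59 and -0.39 in ISH2 roots, and HSP90.1 was the higher one, at 0.56 ± 0.13. Of 18 seed genes tested, 5 were called higher and 0 lower, and 8 were well above background on all 6 arrays. EM6, a late embryogenesis protein gene, read -0.53, 0.04 and 0.33 in ISH1 roots, against -2.42, -2.60 and -2.63 in ISH2 roots, with a control mean of -4.18 ± 0.13 (SD, n = 3). FUS3, a regulator of embryo maturation, differed by 1.24 ± 0.28. The low-oxygen list had 2 of 16 higher and 4 lower.

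Without estradiol the lines were much closer. There, 415 genes (1.49%) were called higher and 113 (0.406%) lower in ISH1, or 457 and 138 with the replicate number as a block. The ISH1 array of replicate 1 stood apart in that group, with 90.9% of its probes well above background, and without it 173 were called higher and 66 lower. Without ISH2 replicate 1 the counts were 207 and 42, without ISH2 replicate 2 they were 156 and 34, without ISH2 replicate 3 255 were higher, and without ISH1 replicate 3 64 were lower. Of the 528 genes called, 230 (43.6%) were also called with the same sign under estradiol, which is 1.4% of the 16457 called there, and 136 with the opposite sign. Under estradiol, 25.0% of all genes were called higher and 34.2% lower. The median difference there was 0.05 over the 19 salicylic acid genes, -0.02 over the 38 photosystem genes and 0.13 over the 16 Calvin cycle genes. The mean level of the salicylic acid list was -2.96 on the ISH1 array that stood apart, against -3.73 and -3.75 on the other ISH1 arrays without estradiol. Of 16 low-oxygen genes, 9 were called higher in ISH1 without estradiol, 5 without the ISH1 array of replicate 1, 5 under normexp and 3 when those 6 arrays were fitted alone.

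AT4G16215 and TBL10 differed between the lines with and without induction. AT4G16215 read 4.04, 4.13 and 3.36 in ISH1 roots, against -5.53, -5.37 and -5.61 in ISH2 roots, all without estradiol, a difference of 9.34 ± 0.33, beside 8.75 ± 0.33 with it. TBL10 had -0.01, -0.36 and -0.50 in ISH1 roots, against 4.38, 4.27 and 3.89 in ISH2 roots, a difference of -4.47 ± 0.23, beside -5.15 with estradiol. In both, the lines were separate in each treatment. The response to estradiol differed between the lines by -0.59 ± 0.46 for AT4G16215 (adjusted p = 0.315) and by -0.68 ± 0.32 for TBL10 (adjusted p = 0.0985). The control with estradiol had -5.92 for AT4G16215, near ISH2, and -0.92 for TBL10, near ISH1.

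**Figure D5:**
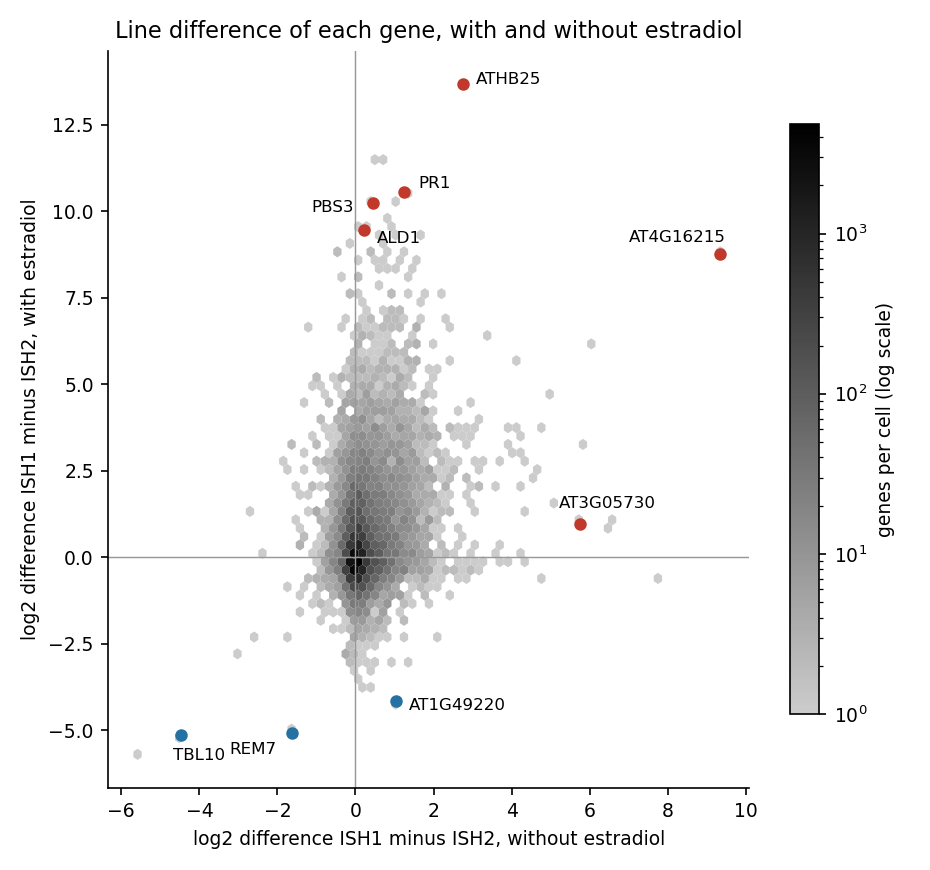
Log2 difference ISH1 minus ISH2 of every gene tested without estradiol (x axis) and with estradiol (y axis); shading gives the number of genes per cell on a log scale, and 9 genes are marked. Most of the spread is vertical, with PBS3 and ALD1 near 0 on the x axis, while AT4G16215 and TBL10 lie far out on both axes.

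Whether the lines responded differently to estradiol was tested directly, as the ISH1 response minus the ISH2 response. This difference was called above 0 for 5044 genes (18.1%) and below 0 for 7337 (26.4%), or for 4127 and 10811 with arrays shifted by their median. An effect of the place on the slide that is the same on every slide cancels in this comparison. Among genes well above background on all 12 arrays, the largest values above 0 belonged to PBS3, ALD1, AT2G25510, AT5G42530 and WAK1, and the largest below 0 to AT1G49220, AT3G05730, CYP78A5, BGAL7 and AT1G07550. CYP78A5 had -1.24, -1.30 and -0.84 in ISH1 roots without estradiol, against -1.85, -2.16 and -1.98 in ISH2 roots, so that the order of the lines was turned under induction. AT3G05730 read 0.22, -1.56 and -4.03 in uninduced ISH1 roots, against -7.34, -7.05 and -8.22 in uninduced ISH2 roots, and its ISH1 values were thus very uneven. With estradiol it differed by 0.95 ± 0.64 (adjusted p = 0.212).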

How the data were processed

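Labelled root RNA was hybridized to 24 one-colour Agilent arrays, 3 in each of 8 groups on 6 slides. The deposited intensity values are processed signals of Agilent Feature Extraction 10.7.3.1, as the file headers state. They are corrected for background, with no scaling across arrays. A table of log2 values deposited by the authors had been shifted to the 75th percentile of each array and centered on each probe's median. These correlated at 0.99992 to 0.999995 per array with values computed here by the same steps. They were used as an alternative.

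In R 4.3.3, 346 spots that the scanner software marked were left out, and replicate spots were averaged. The 75th percentile of each array (a signal of 4577 to 6427) was then set to 0 on the log2 scale. No value was floored, and 0 values were saturated. Through their accession, 34348 of 43603 probes were matched to a locus of the TAIR10.1 RefSeq table. A probe was tested if every array of some group showed it well above background, which held for 36569, and each gene was represented by its brightest probe. That gave 27812 genes, 22277 of them with a locus. A fold against a line seen on 0 arrays is given as a bound, with the dim line at the higher of its own signal and the lowest signal well above background on that array.

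Differences were tested with limma 3.58.1 (two-sided, Benjamini-Hochberg over all genes, 24 arrays in 8 groups, no block). On simulated data for ISH1 against ISH2 with estradiol, with 27657 genes, 83 of 100 changed 2-fold and 95 of 100 changed 4-fold were called, and 11 unchanged ones. The simulation changed few genes and used independent noise, whereas 59.2% of the genes tested were called in the data. Its rates need not hold for the real comparison. The precision is limited by the number of arrays, 3 in a group. Between same-numbered ISH1 and ISH2 arrays, deviations from the group means correlated at 0.02, 0.19 and 0.05 with estradiol and at 0.36, 0.26 and 0.40 without it. The numbers were thus not taken to pair the samples with estradiol, while without it they did, and the blocked counts stand beside that comparison. Within a treatment the number and the slide coincide, so the slide and other shared steps cannot be told apart.

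For naming, the 12 largest differences each way among genes seen on all 6 arrays, the 6 largest bounds each way, the 5 largest differences in response each way, ATHB25, REM7, HSP18.2 and a few members of each list were taken. The 12 each way were called genes with a locus whose groups did not overlap. The bounds and differences in response were also those of called genes. The 27 lists (515 genes) and 3 marker lists were compiled by hand from textbook knowledge. The members and the lists were chosen with earlier results of these data known. For 2 control arrays a description contradicts the title, which was followed. They are replicate 2 without estradiol and replicate 3 with estradiol, and the latter stands in the comparisons with the control above. Alternatives covered normalization, background correction, filters, probe choice, blocks, variance model, a fold minimum and the omission of arrays.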

Additional observations from a re-analysis of the deposited data

Results flagged for a closer look

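The response to estradiol differed between ISH1 and ISH2 by a test of that difference itself (limma, ISH1 response minus ISH2 response) for 5044 genes above 0 and 7337 below 0. Among genes seen on all 12 arrays, the largest values above 0 were 9.77 for PBS3, 9.23 for ALD1, 8.49 for AT2G25510, 8.05 for AT5G42530 and 8.01 for WAK1. The largest below 0 were -5.20 for AT1G49220, -4.79 for AT3G05730, -3.92 for CYP78A5, -3.56 for BGAL7 and -3.56 for AT1G07550.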

How the results depend on the processing

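Numbers of calls depended mainly on the minimum fold, the background correction and the scaling of the arrays. With arrays shifted by their median, 5455 genes were called higher and 13454 lower in ISH1 with estradiol, and 4127 and 10811 in the response. With at least 2-fold in addition, 2908 genes were called higher and 378 lower in ISH1 with estradiol, 160 and 9 without it, and 2211 and 633 in the response; the mitosis, root tip, Casparian strip, xylem and CDK inhibitor lists then had 0 called lower, and the glucosinolate, phosphate and floral lists 5, 7 and 7 called higher. Normexp correction on the median signal gave 6153 lower calls with estradiol, 54 higher and 21 lower without it, 3293 and 3836 in the response, 226 genes 10-fold higher and 4 lower, and 12 mitosis and 6 root tip genes lower. Under normexp the dim genes AT1G70380, AT5G54000, NM_119390 and AT1G19320 changed sign, to 0.23, 0.22, 0.43 and 0.62; the cause was not tested. At least 10-fold higher were 345 genes with a pseudocount of 16 and 169 among probes bright on all 24 arrays, and 12 were 10-fold lower with quantile normalization. Without estradiol, 74 were lower with no filter, and 64 higher and 20 lower with those arrays alone. With the replicate block, 7051 were higher and 9742 lower with estradiol, 457 and 138 without it, and 5163 and 7649 in the response, and the block changed no call of a named gene. With single arrays left out, calls ranged over 6465 to 6656 higher and 8663 to 9134 lower with estradiol, and 156 to 506 and 34 to 89 without it. Dim signal limits the genes seen in 1 line.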
